A study of Homo sapiens with 18 samples.

Results

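IRS2, the gene of insulin receptor substrate 2, was followed through all 18 arrays of 6 HEK lines. It was found by its gene symbol and had 1 probe set of the 16098 that carried a symbol, so it is 1 of 14884 named genes and 1 of the 9686 that were bright enough to test. HEK is an established cell line of human embryonic kidney origin. Wild type for ATXN1L were the parental cells and the CRISPR control lines N4 and N8. The lines A10, A30 and B21 were labelled ATXN1L-KO, and each line had 3 cultures and 3 arrays. Per the labels, the cells grew in DMEM with fetal bovine serum, with no other treatment named. They were CRISPR treated, selected in puromycin and isolated as single colonies, so a line stands for 1 clone (the labels give this text for the parental cells too). IRS2 was selected on its measured rise in A10 against the wild-type lines, in earlier results of these data, so its level in A10 is given as a description without a test, as is any contrast that contains A10.

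IRS2 is a docking protein. Activated insulin and IGF1 receptors phosphorylate it on tyrosines, and the phosphorylated sites recruit PI3 kinase and the adaptor GRB2, which lead to AKT and to MAP kinase signalling. Transcription of IRS2 is known to be raised by FOXO factors, which AKT holds out of the nucleus, and by CREB. ATXN1L is known to bind the transcriptional repressor CIC, which the title of the series names beside it.

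IRS2 lies on the minus strand of chromosome 13, at chr13:109752695-109786583 (GRCh38.p14, RefSeq), and spans 33889 bases. The 250 bases before its annotated start, chr13:109786584-109786833, are shown 5′ to 3′ on the gene's strand because the motifs of the regulators named above were searched there. Capitals mark, in order, 2 CCAAT boxes (the first as its reverse complement, ATTGG) and a TGTTTTG match, the core of the insulin response element that FOXO factors bind.

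IRS2 promoter: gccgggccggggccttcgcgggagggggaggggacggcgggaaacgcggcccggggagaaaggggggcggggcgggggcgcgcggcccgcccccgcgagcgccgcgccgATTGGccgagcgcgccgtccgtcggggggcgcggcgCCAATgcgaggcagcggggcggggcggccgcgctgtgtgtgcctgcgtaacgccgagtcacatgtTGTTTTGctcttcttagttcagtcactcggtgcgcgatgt

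Searched on both strands, TGTTTTG began 40 bases before the start, and 4.3% of the 35116 promoter windows of this length held it. The CCAAT boxes began 141 and 105 bases before the start, and 32% of windows held at least 1. The window had 5 matches to the GC box GGGCGG, which overlapped in 2 pairs, and 42.6% of windows held it. Its GC content was 76.4% against a median of 58% over all windows. No match was found to the CIC octamers TGAATGAA (in 1.4% of windows) and TGAATGGA (0.832%), the FOXO site GTAAACA (2.98%), the CREB site TGACGTCA (1.65%) or the E-box CACGTG (6.34%). These counts describe letters in 1 window, and the arrays did not measure binding there.

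The deposited values are log2 signals. Array medians lay between 5.09 and 5.18, and in bulk RNA fewer expressing cells and less RNA per cell cannot be told apart. ATXN1L itself gave 7.05 to 7.29 on the 9 wild-type arrays and 7.20 to 7.61 on the 9 KO-labelled arrays. It was therefore not lower in the labelled knockouts, and since the labels do not say which part of it was edited, this signal does not check them. Of 15 listed kidney and HEK markers, 12 had a probe set and 10 passed the filter on dim signals, among them EYA1, WT1 and KRT18. IRS4, an IRS family member known from HEK-derived cells, was dim at line means of 2.63 to 3.37. Of 9 listed leukocyte markers only CD14 and LYZ had a probe set, and both stayed below the filter value of 5.6 as well. Of the matrix and keratin markers of fibroblasts and keratinocytes with a probe set, LUM alone passed. The hepatocyte and adipocyte markers TTR and PLIN1 passed, with line means of 5.34 to 5.78, close to the filter value.

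IRS2 was higher in every KO-labelled line than in every wild-type line. The arrays of the parental cells read 7.57, 7.53 and 7.60, those of N4 7.72, 7.78 and 7.79, and those of N8 7.50, 7.40 and 7.57 (log2, replicates 1, 2 and 3). In A30 they read 7.88, 7.93 and 7.96, in B21 8.0, 8.09 and 8.18, and in A10 8.47, 8.65 and 8.71. All 9 KO-labelled arrays lay above all 9 wild-type arrays, a separation that 0.299% of the tested genes showed in this direction and that A10, on which IRS2 was chosen, helped to fix. The lines, from low to high, were N8 at 7.49 ± 0.09, the parental cells at 7.57 ± 0.04, N4 at 7.76 ± 0.04, A30 at 7.92 ± 0.04, B21 at 8.09 ± 0.09 and A10 at 8.61 ± 0.12 (mean ± SD, n = 3 arrays). N8 and the parental cells overlapped, while the arrays of every other neighbouring pair in this order did not. The order was taken from these same values, and the share of genes separated in this way was not counted. The nearest arrays of A30 and B21 read 7.96 and 8.0, and limma did not call these lines apart.

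**Figure D1:**
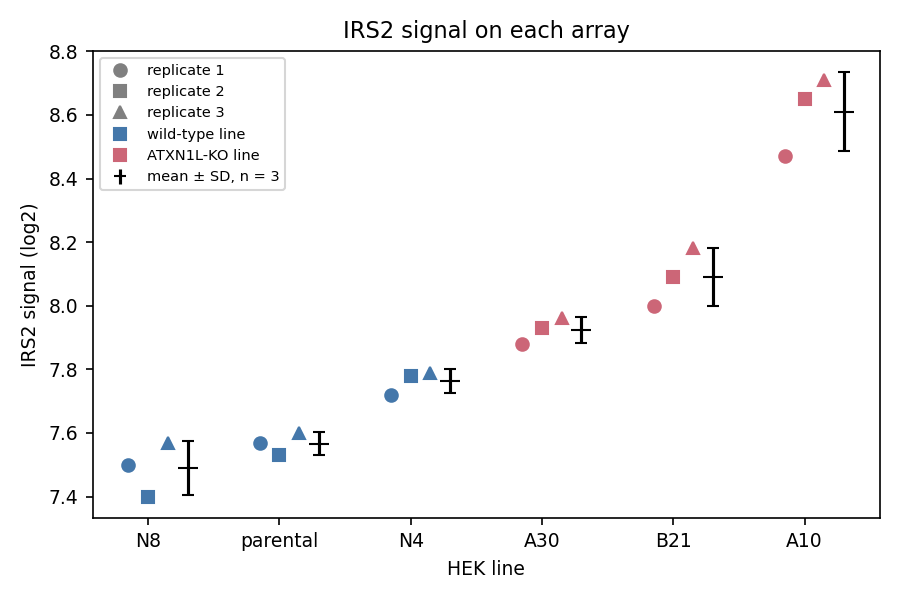
IRS2 signal (log2) on each of the 18 arrays, with the 6 HEK lines ordered by their mean; symbols mark the replicate number, and black bars give the mean ± SD of 3 arrays. The KO-labelled arrays run from 7.88 to 8.71 and the wild-type arrays from 7.40 to 7.79, with A10 above all other lines.

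In A10, IRS2 was 1.00 above the mean of the wild-type lines (log2), a 2.00-fold difference. It was the third largest rise among the tested genes of that line, the contrast on which IRS2 was selected. The A10 line is not uniform: for the 36 genes at least 1 (log2) away from the wild-type mean in its replicates 2 and 3, the median share of that distance seen in replicate 1 was 22.6% (quartiles 4.98% and 51.8%). IRS2 reached 80.4% there, being 0.86 above the wild-type mean in replicate 1 and 1.07 in the others. In A30 and B21 IRS2 reached 80.8% and 74.4% in replicate 1. The median share over genes picked in the same way was 93.2% in A30 (64 genes) and 78.4% in B21 (61 genes). The A10 shares are not like for like. IRS2 was chosen on its rise over all A10 arrays, and the 36 genes on replicates 2 and 3 alone, which favours a low share in replicate 1.

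A30 and B21 were compared with the same wild-type arrays as A10, so these tests are not independent of the choice of IRS2 on its wild-type side. IRS2 rose by 0.32 ± 0.06 in A30 (SE, limma adjusted p = 0.000713), or 1.25-fold with a 95% interval of 1.14 to 1.36. In B21 it rose by 0.48 ± 0.06 (limma adjusted p = 4.15e-05), or 1.40-fold with an interval of 1.28 to 1.53. Of all genes tested, 12.9% were called higher in A30 and 8.82% in B21, and 2.87% had all 6 arrays of both lines above all 9 wild-type arrays, as IRS2 did. Within replicate 1 the differences were 0.28 in A30 and 0.40 in B21, and within replicates 2 and 3 they were 0.33 and 0.52. The error in these tests is the variation among cultures of the same line, pooled over the 6 lines, and other edited clones could vary more.

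Differences were smaller, and not called, between A30 and B21 and between the control lines and the parental cells. No A10 array enters these differences, but their SE comes from all 18 arrays. Without replicate 1 of A10 the limma adjusted p was 0.112 for A30 against B21 and 0.165 for N4 against the parental cells. The control line contrasts also use wild-type arrays on which IRS2 was chosen. A30 was below B21 by −0.17 ± 0.07 (limma adjusted p = 0.176, with 9.8% of genes called), with an interval of −0.32 to −0.01 before adjustment. N4 differed from the parental cells by 0.20 ± 0.07 (limma adjusted p = 0.254, 0.547% of genes called), with an interval of 0.04 to 0.35. N8 differed from them by −0.08 ± 0.07 (limma adjusted p = 0.520, 14.7% of genes called), with an interval of −0.23 to 0.08. Replicate 1, in which 18.6% of genes were called against replicates 2 and 3, differed in IRS2 by −0.08 ± 0.04 with the line as a term. This contrast contains the A10 arrays and is given without a test, and it was −0.049 without replicate 1 of A10. With the line as the unit, the KO-labelled lines averaged 8.21 ± 0.36 and the wild-type lines 7.61 ± 0.14 (SD, n = 3 lines). This difference of 0.60 contains A10 and is given as a description, and 3 lines against 3 cannot give an exact permutation p below 0.1.

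Genes near IRS2 on chromosome 13 were also shifted, upward in A10 and downward in B21 and N8. Of the 38 tested neighbours of IRS2, 20 on one side and 18 up to the end of the chromosome, 35 lay above the wild-type lines in A10, with a median of 0.24 (log2). In A10 19 of the 38 were called higher and 0 lower, where 3.84% of all genes were called higher and 4.56% lower. The median over the 131 other tested genes of chromosome 13 was 0.00 in A10. The window stood at 0.25, 0.26 and 0.31 in replicates 1, 2 and 3 of A10, so replicate 1 was close to the others here. None of the 38 neighbours reached the rise of IRS2 in A10, an outcome that the choice of IRS2 on this rise favours. In A30 and in B21, 1 of the 38, EFNB2, stood at or above IRS2. With each line centred on the running median of 41 neighbouring genes, IRS2 stood 0.65 above the wild-type lines in A10 instead of 1.00.

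In B21 IRS2 rose while most of its neighbours lay below the wild-type lines. Of the 38, 32 lay below, with a median of −0.19, and 15 were called lower and 1 higher, against 7.2% and 8.82% of all genes. The 131 other tested genes of the chromosome were as low in B21, with a median of −0.22. In A30 the neighbours had a median of −0.10 and the rest of the chromosome one of −0.06, with 7 neighbours called lower and 2 higher, against 16.3% and 12.9% of all genes, so the count of lower calls there was near the background. The same centring gave IRS2 a difference of 0.62 in B21 and 0.41 in A30, both still called. N8 was also low in this window, with a median of −0.245 against the parental cells and 15 of 38 called lower (7.03% of all genes). Against the mean of the wild-type lines, which includes N8, the window was at −0.17 in N8 and the rest of the chromosome at −0.10. The parental cells stood at 0.08 and 0.13 against that mean. N8 was therefore below the parental cells in the rest of the chromosome too, not in this window alone. For N8 against the parental cells the centring turned the sign of IRS2, from −0.08 to 0.16, neither called.

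**Figure D2:**
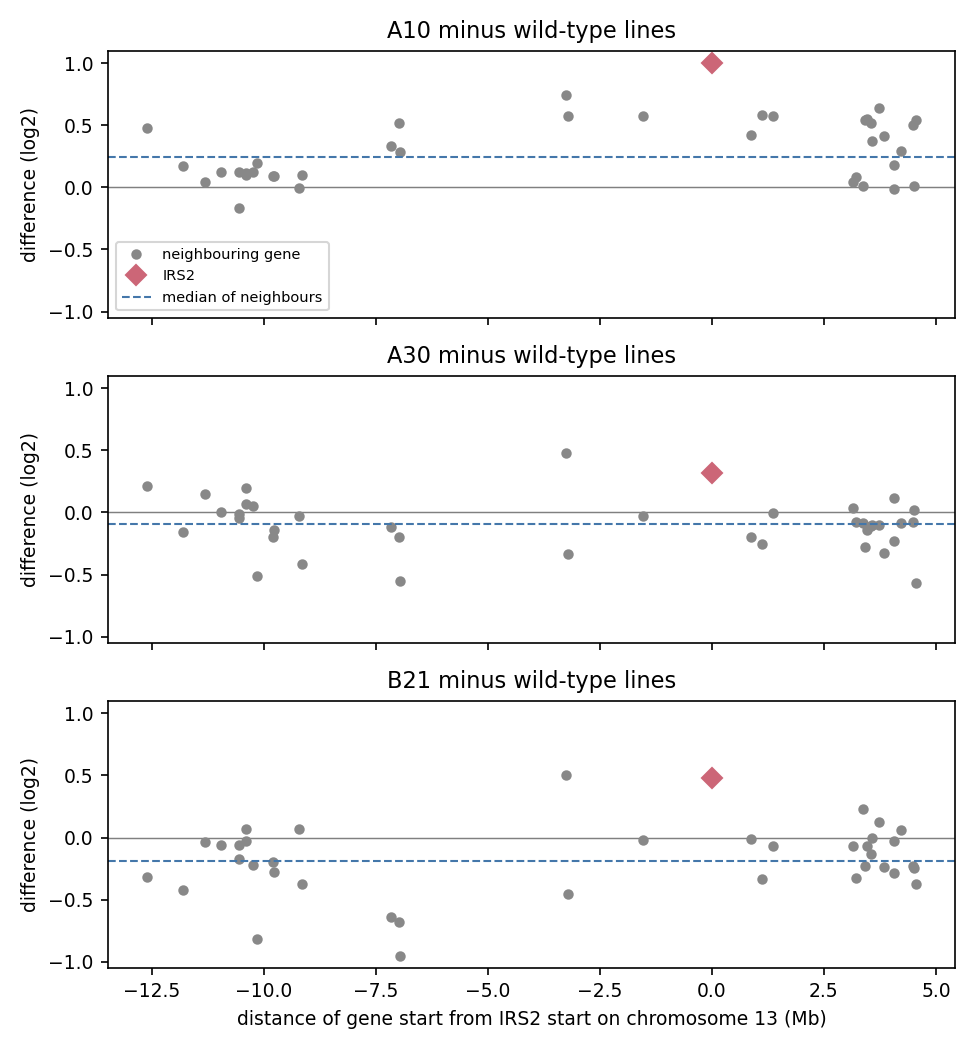
Difference from the wild-type lines (log2) of IRS2 and its 38 tested neighbours on chromosome 13 in A10, A30 and B21, against the distance between gene starts in Mb. The dashed line, the median of the neighbours, lies at 0.24 in A10, below 0 at −0.10 in A30 and at −0.19 in B21. IRS2 lies above it in each line.

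Of the 4 tested genes on either side, EFNB2, which encodes an ephrin ligand, was the only other one above the wild-type lines by a called difference in each KO-labelled line. Its rise was 0.74 ± 0.09 in A10 (limma adjusted p = 6.22e-05), 0.48 ± 0.09 in A30 (0.000570) and 0.50 ± 0.09 in B21 (0.000956). Among the wild-type lines, N8 was below the parental cells in EFNB2 by −0.47 ± 0.11 (0.00778). ABHD13 rose in A10 by 0.57 ± 0.06, and differed by −0.03 in A30 and by −0.02 in B21. NAXD, a repair enzyme for damaged NADH, rose in A10 by 0.43 ± 0.08. ANKRD10 and ARGLU1 rose in A10 by 0.58 ± 0.08 and 0.57 ± 0.06, and fell in A30 by 0.25 and 0.34 and in B21 by 0.34 and 0.46. POGLUT2, an O-glucosyltransferase gene, rose in A10 by 0.28 ± 0.08 and fell by 0.56 in A30 and 0.95 in B21. MCF2L differed by 0.04, 0.03 and −0.07.

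Other genes of the insulin and IGF pathway were called in both directions in the KO-labelled lines, at shares close to those of all genes in A10 and A30. The lists held 146 other genes, of which 92 had a probe set and 81 were tested. In A10 2 were called higher and 7 lower (3.84% and 4.56% of all genes), with a median difference of −0.05 against −0.01 over all genes. In A30 11 were higher and 13 lower (medians 0.00 and 0.01), and in B21 13 were higher and 6 lower (0.02 and 0.01). The share called was 11.1% in A10 against 8.4% of all genes, 29.6% in A30 against 29.3%, and 23.5% in B21 against 16%. The A10 count of 9 became 3 without replicate 2 of A10, 4 without replicate 3 and 18 without replicate 1. It was 16 with the replicate number as a block and 28 in replicates 2 and 3 alone. The B21 count of 19 became 9 without replicate 2 of B21 and 10 without replicate 3. The share of all genes called under these alternatives was not counted. The changed counts therefore show dependence on the setting and are no result about the pathway. With the lines as the unit limma called 0 of the 81 in KO-labelled against wild-type lines, and 0% of all genes. Before adjustment, 12 of the 81 had a limma p under 0.05, as did 937 of all 9686 genes tested.

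Among ligands and binding proteins, 6 were tested. IGFBP3, which binds IGFs in the medium, read 6.31, 6.76 and 6.60 in B21 and 5.19 to 5.77 over the wild-type arrays. It rose there by 1.02 ± 0.12 (limma adjusted p = 1.72e-05), and differed by 0.16 in A30 and −0.13 in A10. IGFBP7 fell by 0.44 ± 0.06 in A30, a difference of −0.04 (adjusted p = 0.732) after neighbour centring. IGFBPL1, an IGFBP-like secreted protein gene, fell by 0.82 ± 0.15 in A30 and 0.70 ± 0.15 in B21, while the wild-type lines themselves ran from 5.74 in N8 to 7.56 in the parental cells. Of the receptors, INSR differed by −0.09 ± 0.08 and IGF1R by −0.05 ± 0.07 in A10, neither called. In A30 INSR rose by 0.22 ± 0.08 (limma adjusted p = 0.0393), and IGF2R, which clears IGF2 from the cell surface, fell by 0.32 ± 0.07 (0.00248).

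Of the other docking proteins, IRS1 was at 5.81, 5.74 and 5.72 in the parental cells, N4 and N8 and at 6.01, 5.81 and 6.01 in A10, A30 and B21. It differed by 0.26 ± 0.12 in both A10 and B21 and by 0.06 ± 0.12 in A30, with no call (limma adjusted p = 0.221, 0.173 and 0.760). Of the 15 other substrates and adaptors tested, 1 was higher and 2 lower in A10, where 3.84% and 4.56% of all genes were. The higher one was CRKL, an adaptor of tyrosine kinase signalling, at 9.58, 9.84 and 9.86 in A10 against 8.91 to 9.36 over the wild-type arrays. CRKL rose in A10 by 0.60 ± 0.06 (limma adjusted p = 1.59e-05) and differed by 0.11 in A30 and 0.12 in B21. GAB2, a docking protein that recruits PI3 kinase, rose by 0.59 ± 0.08 in B21.

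Further down the pathway, DDIT4, an inhibitor of mTORC1 signalling, read 7.48, 7.07 and 7.10 in A10 and 7.76 to 8.11 over the wild-type arrays. It fell by 0.69 ± 0.09 in A10 (limma adjusted p = 0.000205), by 0.48 ± 0.09 in A30 and by 0.37 ± 0.09 in B21, where the call ended without replicate 1 or 2 of B21 (adjusted p = 0.0813 and 0.0522). Of TSC2 and TSC1, partners in the complex that restrains mTORC1, TSC2 fell by 0.32 ± 0.06 in A10 and TSC1 by 0.75 ± 0.07 in A30. The call of TSC2 was lost with neighbour centring (adjusted p = 0.0847). EIF4EBP2, a translation repressor controlled by mTORC1, fell by 0.36 ± 0.05 in A30 and 0.27 ± 0.05 in B21. PHLPP1, a phosphatase that acts on AKT, rose by 0.42 ± 0.06 in A30 and 0.49 ± 0.06 in B21. In A30 that call was lost with neighbour centring (0.14, adjusted p = 0.140). Of the pseudokinase and ubiquitin ligase genes, TRIB2 fell by 0.32 ± 0.07 and FBXW8 rose by 0.21 ± 0.06 in A10. In the opposite direction, TRIB2 rose by 0.22 ± 0.07 in B21 and FBXW8 fell by 0.20 ± 0.06 in A30. Both calls in A10 were lost without replicate 2 of A10 (adjusted p = 0.0959 and 0.122), that of TRIB2 also with neighbour centring (0.0518), and that of FBXW8 also without replicate 3 of A10 (0.167) or with N8 out of the reference (0.366). FASN, the fatty acid synthase gene, fell by 0.54 ± 0.06 in A30, 0.28 ± 0.06 in B21 and 0.20 ± 0.06 in A10 (limma adjusted p = 0.0462 in A10).

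The FOXO list, 15 tested genes beside IRS2, had 0 called higher and 1 lower in A10 (8.4% of all genes called) and 0 called in B21 (16%). The lower one was FOXO4, which fell by 0.43 ± 0.11 in A10. Its difference stayed at −0.43 and −0.40 without replicate 2 or 3 of A10 and at −0.39 with neighbour centring, though it no longer passed (adjusted p = 0.0877, 0.111 and 0.0616). In A30 3 of them were higher and 2 lower, or 33.3% against 29.3% of all genes, with FOXO1 higher by 0.29 ± 0.07 and the cell cycle inhibitor gene CCNG2 lower by 0.41 ± 0.09. Of 8 CREB target genes, 0 were called in A10, and 3 were called higher in A30 and 3 in B21, where 12.9% and 8.82% of all genes were. They included the transcription factor genes JUNB, by 0.48 ± 0.06 in A30 and 0.29 ± 0.06 in B21, and ATF3, by 0.51 ± 0.09 in A30 and 0.47 ± 0.09 in B21. SIK1, a kinase gene induced by cAMP, rose by 0.50 ± 0.10 in A30.

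**Figure D3:**
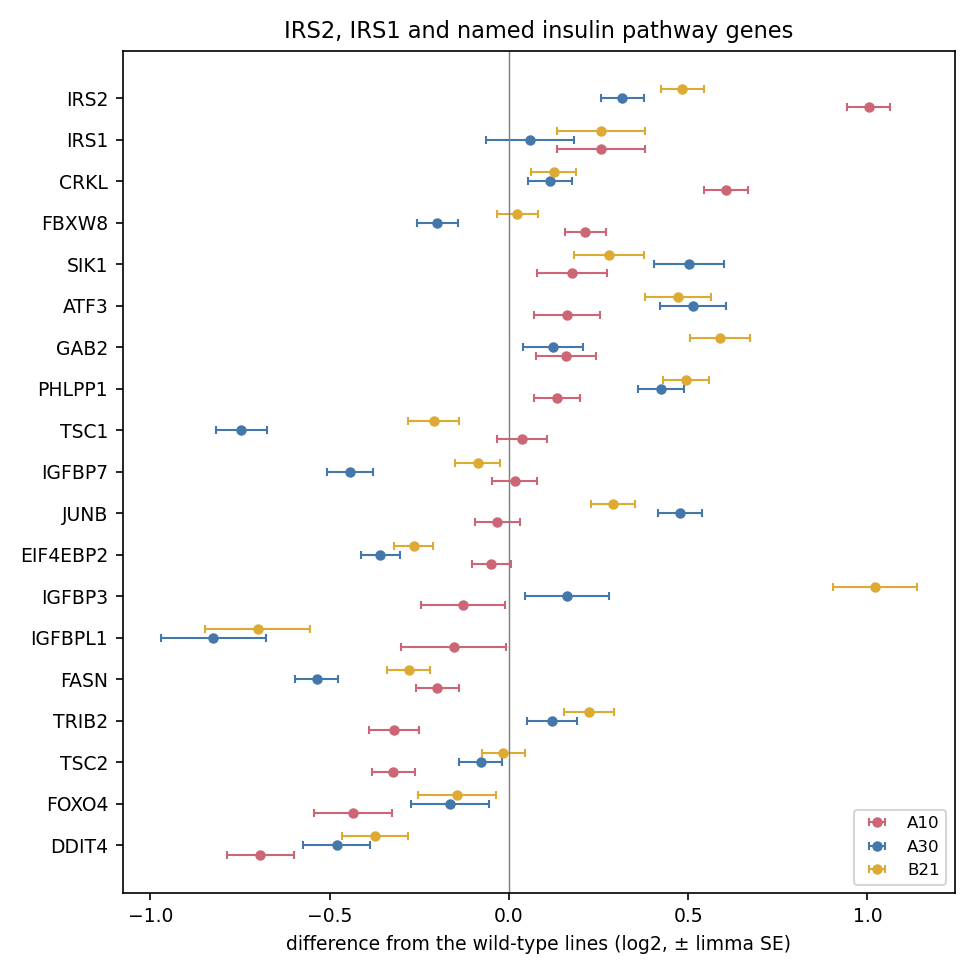
Difference from the wild-type lines (log2, ± limma SE) in A10, A30 and B21 for IRS2, IRS1 and the named genes of the insulin pathway lists. IRS2 lies at 1.00, 0.32 and 0.48, IRS1 between 0.06 and 0.26, and DDIT4 at −0.69, −0.48 and −0.37.

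Genes with a pattern like that of IRS2 were ranked by Pearson correlation over the 18 arrays, among 1944 other tested genes whose line means ranged over at least 0.5 (log2). The arrays of a line share a clone and A10 weighs most, so these values are a description across arrays. The 5 highest were ZNF280B (r = 0.93), CRKL (0.89), PPIL2 (0.89), BCL2L13 (0.87) and LZTR1 (0.86), where 95% of the compared genes lay below 0.54. All 5 lie on chromosome 22, which held 2.26% of the genes compared. In A10 the 243 tested genes of chromosome 22 had a median difference of 0.10, against −0.01 over all genes. Of the 243, 40 were called higher and 4 lower, where 3.84% and 4.56% of all genes were. Over the 15 arrays without A10 the correlations were 0.82 for ZNF280B, 0.80 for BCL2L13, 0.73 for LZTR1, 0.72 for PPIL2 and 0.63 for CRKL. Without A10 these 5 genes ranked 67, 83, 156, 168 and 273 among the genes compared, so others were more alike there. For the zinc finger gene ZNF280B the difference was 0.66 in A10, 0.29 in B21 and 0.26 in A30, the same order as for IRS2.

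The 5 lowest correlations belonged to MRPL57 (r = −0.93), C10orf95-AS1 (−0.92), COQ4 (−0.91), IFITM1 (−0.88) and PRR16 (−0.87). MRPL57, a mitochondrial ribosomal protein gene that also lies on chromosome 13, stood at 7.63, 7.32 and 7.62 in the parental cells, N4 and N8 and at 6.90, 7.28 and 7.15 in A10, A30 and B21. Its correlation was −0.90 over the 15 arrays without A10, and N4 was the highest wild-type line in IRS2 and the lowest in MRPL57. For IFITM1, an interferon-induced antiviral protein gene, the differences were −1.08 (A10), −0.50 (A30) and −0.61 (B21). COQ4, a gene of coenzyme Q synthesis, differed by −0.65, −0.18 and −0.11.

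**Figure D4:**
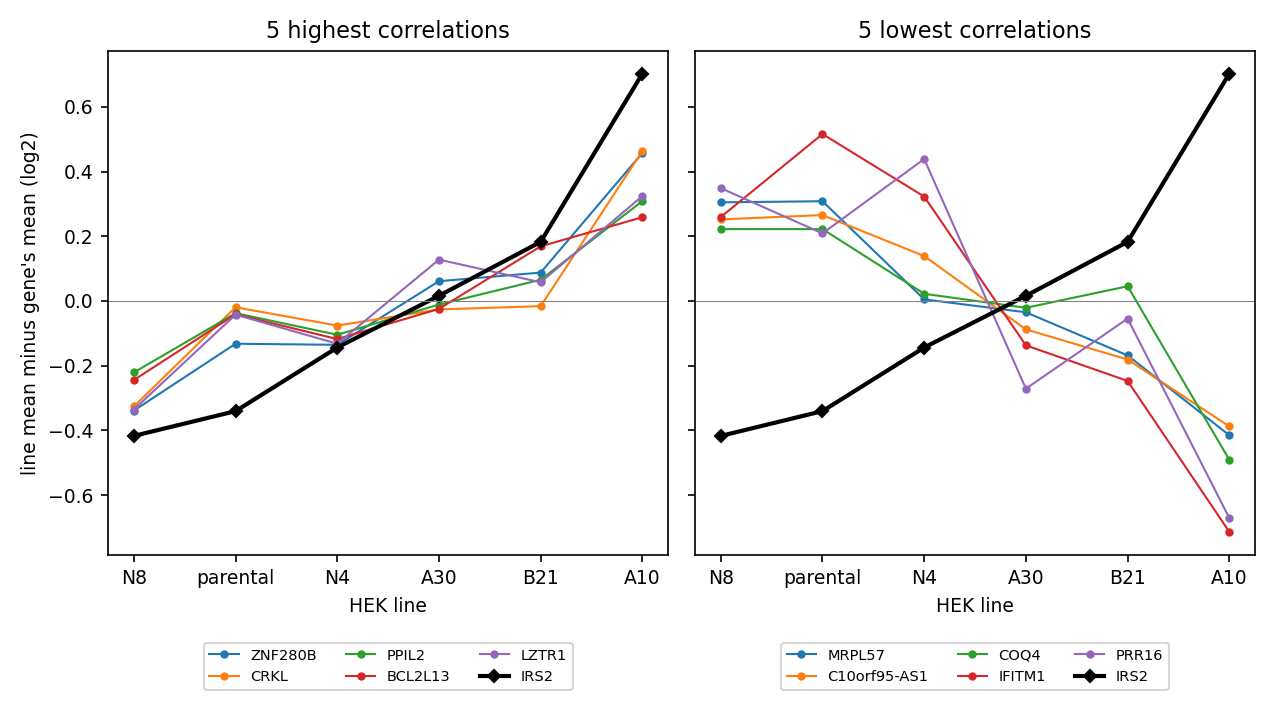
Line means minus the gene's own mean (log2) over the 6 HEK lines, for IRS2 (black) with the 5 genes of highest (left) and lowest (right) correlation with it over 18 arrays. The genes on the left peak in A10 with IRS2 and are lowest in N8, and those on the right are lowest in A10.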

How the data were processed

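The authors deposited log2 signals per probe set, made with Affymetrix Expression Console per the submitters' processing notes, which name no version or settings here. The log2 scale was read from the values, 0.57 to 14.84 over 53617 probe sets. They were used as deposited, with a pseudocount of 0 and the brightest probe set of each gene. Symbols came from the platform annotation, updated by gene ID to RefSeq names (GRCh38.p14). Genes with at least 3 arrays above 5.6, the 40th percentile of named probe sets, were tested. Lines were compared on arrays with limma 3.58.1 in R 4.3.3, all 6 lines sharing 1 spread estimate, and genotypes on 6 line means. Calls are two-sided with a Benjamini-Hochberg adjusted p under 0.05 over all genes tested. The fits were tested on simulated data. Named genes are IRS2, IRS1 and IRS4, up to 4 called pathway genes per direction and line with the smallest p, 4 tested neighbours on either side, and 5 genes at each end of the correlation. The values of 1 neighbour are not reported here. EYA1, WT1, KRT18, PAX2, PAX8, CD14, LYZ, LUM, TTR, PLIN1, INSR, IGF1R, IGF2R, AKT1, FOXO1 and CCNG2 were named after their values were seen. The member and the lists were chosen with earlier results of these data known. The replicate number was left out of the main fits, as not all pairs of same-numbered arrays of different lines were alike. Over 45 such pairs, deviations from the line means correlated at −0.004 to 0.514 (median 0.2), and 38 exceeded 0.1. Most pairs were thus alike, and the main SE do not take this out. Fits with the number as a block are given below. Figures used matplotlib 3.10.9. The number of arrays limits the precision.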

Additional observations from a re-analysis of the deposited data

Results flagged for a closer look

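Of the pathway genes named by smallest p, 5 differed between A30 and B21, by the test of A30 against B21 itself (limma, adjusted over all genes tested). Of all genes tested, 9.8% were called in that test. The named genes had been picked on calls against the wild-type lines, and the other list genes were not counted. A30 was below B21 in each of the 5. Among the uncounted list genes, FOXO1 had means of 7.45 in A30 and 7.10 in B21, and AKT1 6.32 and 6.85. IGFBP3 differed by −0.86 ± 0.14 (SE, adjusted p = 0.00104), TSC1 by −0.54 ± 0.09 (0.000832), GAB2 by −0.47 ± 0.10 (0.00717), IGFBP7 by −0.36 ± 0.08 (0.00658) and FASN by −0.26 ± 0.07 (0.0333). With neighbour centring IGFBP7 changed sign, to 0.066 (adjusted p = 0.727), and FASN lost its call under 7 alternatives. IRS2 was not among the 5.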

How the results depend on the processing

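IRS2 kept its direction and its side of the threshold in A30 (0.26 to 0.41) and B21 (0.43 to 0.62) under each alternative that could be tested, leaving out single arrays included; replicate 1 alone allows no test. The fit with the replicate number as a block gave 0.32 (adjusted p = 0.000174) for A30, and the blocked fits changed no IRS2 call; 15 of 18 arrays correlated best with their own number. Neighbour centring gave 0.65 for A10, turned N8 against the parental cells to 0.16, and turned IGFBP7 in A30 against B21 to 0.066 (adjusted p = 0.727). In replicate 1 alone, an alternative chosen after seeing the data, the difference was 0.87 for A10 and 0.15 for N4 against the parental cells. The A10 pathway count of 9 was 5 with no filter, 16 with the replicate block, 28 in replicates 2 and 3 only, 2 with a 1.5-fold minimum, and 3 to 18 without 1 array. The A30 count of 24 was 3 with the 1.5-fold minimum. The B21 count of 19 was 12 with no filter, 5 with that minimum and 9 to 24 without 1 array. These counts stand without the share of all genes called under the same alternative. The alternatives for single pathway genes were added after the data were seen. FASN in A30 against B21 lost its call with no filter (adjusted p = 0.0706), in replicates 2 and 3 only (0.0933) and without replicate 1 or 3 of A30 or any 1 array of B21 (0.0621 to 0.108).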
